A study of Mus musculus with 8 samples.

Results

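The genes described here are 9 mouse genes of early neural development, namely the SoxB transcription factor genes Sox1, Sox2, Sox3 and Sox21, the proneural genes Neurog1 and Neurog2, and the neuronal genes Dcx, Tubb3 and Elavl3. They were taken by symbol, and all 9 were among the 34536 gene symbols of the count table. Of the 9, 6 passed the filter on low counts and were tested, all but Neurog1, Neurog2 and Dcx. RNA sequencing libraries were made from cells isolated by fluorescence-activated sorting out of mouse embryoid bodies, cultured aggregates of differentiating stem cells. By their labels, 4 libraries are endocardial (A, C, E and G) and the other 4 endothelial (B, D, F and H), with no genotype or treatment named for either group. The sources used here do not give the sort markers, culture day or stem cell line. Nor do they say whether libraries came from separate cultures, so the p-values measure only how these samples vary, and that variation may be technical.

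SoxB factors bind DNA through an HMG box. Sox1, Sox2 and Sox3 form the SoxB1 group, are active in neural plate and neural progenitor cells and keep such cells undifferentiated, and Sox2 also acts with Pou5f1 in pluripotent cells. Sox21 belongs to the SoxB2 group and in chick embryos opposes SoxB1 factors. Neurog1 and Neurog2 are bHLH factors that start neurogenesis, and Dcx, Tubb3 and Elavl3 are switched on as neurons form. None of these genes is a marker of endocardium or of endothelium.

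The SoxB genes are close relatives, so the sequences are shown to let a reader see how much of a read could fit more than 1 of them. The lines give 120 bases near the start of the HMG box on the coding strand, read from GENCODE M21 transcripts (build GRCm38, which is mm10), and capitals mark the 97 positions identical in all 4 genes.
Sox1: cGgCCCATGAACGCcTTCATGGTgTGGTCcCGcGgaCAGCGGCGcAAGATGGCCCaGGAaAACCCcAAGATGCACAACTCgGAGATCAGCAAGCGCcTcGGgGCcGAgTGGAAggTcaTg
Sox2: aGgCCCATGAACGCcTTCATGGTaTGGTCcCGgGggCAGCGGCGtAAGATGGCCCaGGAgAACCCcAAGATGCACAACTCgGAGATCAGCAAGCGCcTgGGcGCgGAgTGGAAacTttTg
Sox3: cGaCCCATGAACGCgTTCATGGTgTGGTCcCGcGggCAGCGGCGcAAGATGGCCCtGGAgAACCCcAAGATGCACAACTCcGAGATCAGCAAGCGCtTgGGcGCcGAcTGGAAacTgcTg
Sox21: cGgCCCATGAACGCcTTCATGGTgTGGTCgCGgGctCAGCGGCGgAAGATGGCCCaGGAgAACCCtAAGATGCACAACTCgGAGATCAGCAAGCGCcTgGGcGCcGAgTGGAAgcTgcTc

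These stretches lie at chr8:12396517-12396636 on the plus strand for Sox1, chr3:34650548-34650667 on the plus strand for Sox2, chrX:60892876-60892995 on the minus strand for Sox3 and chr14:118235489-118235608 on the minus strand for Sox21, all within the coding part of a single exon. Over 240 bases from the same starting point, Sox1 and Sox3 were the most alike pair, at 90.0% identical bases, and Sox2 was 86.7% identical to Sox3 and also to Sox21. The longest run shared by a pair of transcripts was 45 bases, between Sox1 and Sox3. Outside the box the transcripts differed. Of all 31-base words in a gene's transcripts, 2.06% were shared with transcripts of any other gene for Sox1, 0.888% for Sox2, 0.934% for Sox3 and 0.398% for Sox21, so few reads could be split between them. For Sox1, 56 of the 99 shared words were shared with the overlapping locus Gm25239. The share was 0% for Neurog1 and Neurog2, 0.45% for Dcx, 3.21% for Tubb3, mostly with Tubb6, and 3.75% for Elavl3, mostly with the overlapping locus Gm49318. Tubb3 lies within the longer locus Gm20388 on the same strand. Sox2 and Sox1 lie within the noncoding genes Sox2ot and Sox1ot, also on the same strand. Sox1 overlaps Gm25239 on the same strand too, and Sox21 overlaps Gm4675 on the opposite strand. Sox2ot, Sox1ot, Gm25239, Gm4675 and Gm49318 are not among the gene symbols of the count table, so there are no values for them. The other genes lie at chr13:56250478-56252163 (Neurog1), chr3:127633135-127635631 (Neurog2), chrX:143855842-143933311 (Dcx), chr8:123411424-123422015 (Tubb3) and chr9:22015005-22052023 (Elavl3), all protein-coding.

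The markers go against the label endothelial in part. All 28 pan-endothelial genes were detected in every library, but their summed level was 1954 to 2356 CPM (counts scaled by library size) in endocardial and 523.8 to 1052 CPM in endothelial libraries, and 22 of 28 were higher in endocardial libraries at an adjusted p below 0.05 and 0 lower (edgeR, median log2 fold change 1.92). Cdh5, the cadherin of endothelial junctions, averaged 132 ± 17.3 CPM in endocardial and 16.1 ± 1.11 CPM in endothelial libraries (edgeR adjusted p = 3.96e-06). Among endocardial markers, 4 of the 9 tested were higher and 0 lower (median 0.54). At the same cutoff, 1.42% of all tested genes were higher and 1.16% lower in endocardial libraries. The higher SoxB levels described below thus stand in libraries that are poorer in endothelial markers, and the part of this in the SoxB values was not tested.

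The SoxB genes were at lower levels in the endocardial than in the endothelial libraries, by 4.10-fold to 8.08-fold, while the neuronal tubulin gene Tubb3 was at about the same level in both groups. Sox1 and Sox3 were called lower in the endocardial libraries, and Sox2 and Sox21 had fold changes of similar size without passing the test. Neurog1, Neurog2 and Dcx had too few reads to be tested. Levels are in CPM (a gene's share of the library's reads after TMM scaling, in the usual per-million unit), and means below are given with the SD over 4 libraries. A gene was called when the Benjamini-Hochberg adjusted p of edgeR's quasi-likelihood test over 13817 tested genes was below 0.05. By that rule 2 of the 4 SoxB genes were lower and 0 higher, beside 1.16% of all tested genes called lower and 1.42% called higher (2.58% in either direction). The median log2 fold change, endocardial over endothelial, was -2.24 over the 4 SoxB genes and 0.01 over all tested genes. Totals per library ran from 6677667 to 11369363 counts.

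**Figure D1:**
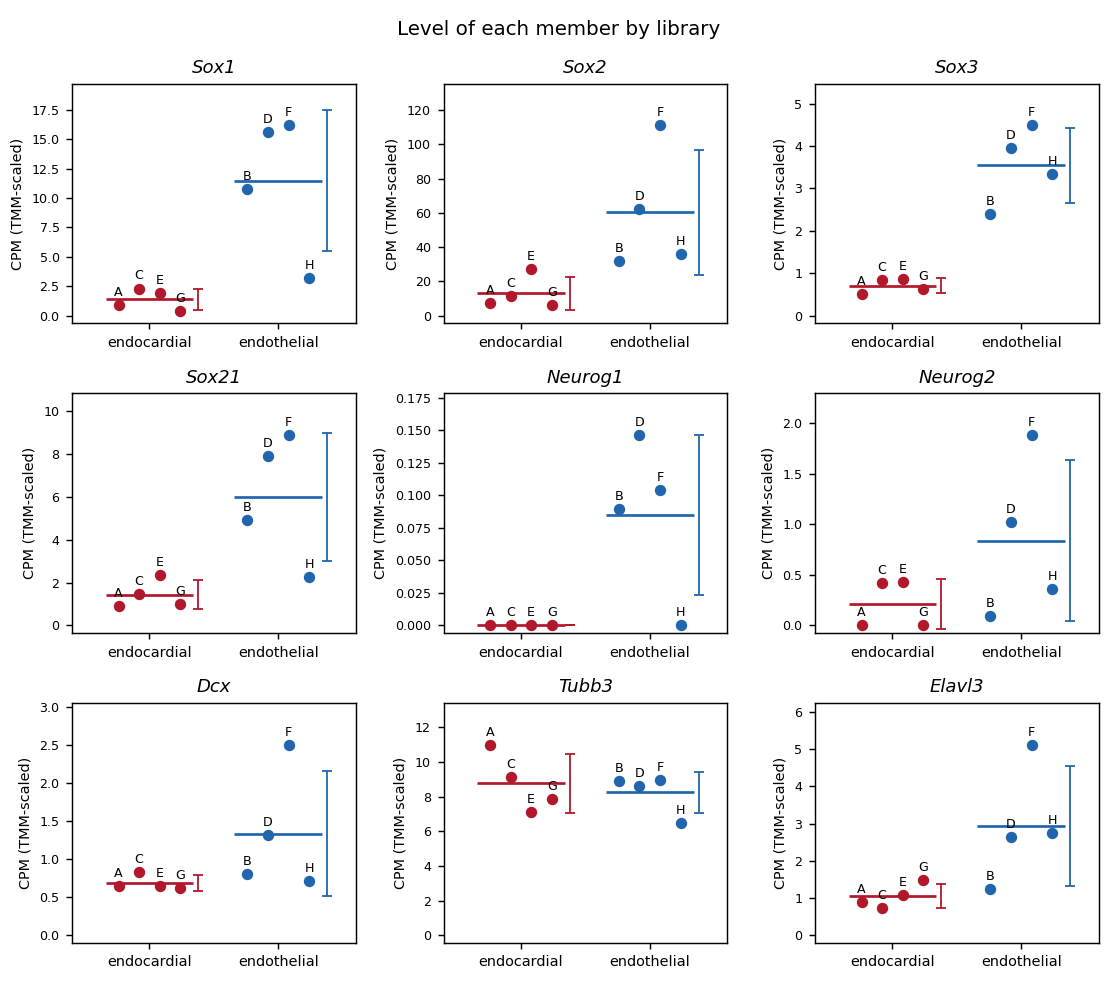
Level of each of the 9 genes in CPM, by library, with endocardial libraries on the left and endothelial ones on the right of each panel. Points are libraries named by their letter, horizontal lines are group means and bars are SDs (n = 4). Sox1, Sox2 and Sox3 show no overlap between groups, Tubb3 overlaps, and library F holds the highest endothelial value of every gene except Neurog1.

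Sox1, a SoxB1 factor of the neural plate, had the largest estimated difference. It had 0.904, 2.30, 1.94 and 0.374 CPM in endocardial libraries A, C, E and G, against 10.8, 15.6, 16.2 and 3.23 CPM in endothelial libraries B, D, F and H. The groups did not overlap, but H lay much nearer to the endocardial libraries than B, D and F did. The mean of Sox1 was 1.38 ± 0.894 CPM in endocardial libraries and 11.5 ± 5.99 CPM in endothelial ones, a log2 fold change of -3.01 with an SE of 0.60 (edgeR adjusted p = 0.031). The call for Sox1 depended on which libraries were in the fit. It was lost on leaving out A (adjusted p = 0.0983), C (0.0639), D (0.0903), E (0.0884), F (0.0608) or G (0.0789), and kept on leaving out B (0.0418) or H (0.00984).

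Sox3, the X-linked SoxB1 gene of the neural plate, was low but the most even of the 4. Its levels were 0.516, 0.837, 0.860 and 0.624 CPM in endocardial libraries A, C, E and G, against 2.41, 3.94, 4.49 and 3.35 CPM in endothelial libraries B, D, F and H. Every endothelial library was well above every endocardial one. Sox3 averaged 0.709 ± 0.167 CPM in endocardial libraries and 3.55 ± 0.890 CPM in endothelial ones, with an estimate of -2.28 on the log2 scale and an SE of 0.34 (edgeR adjusted p = 0.00727). The call was kept in all 8 fits that leave out 1 library, with an adjusted p of 0.00773 to 0.0361, and in the 9 other alternative fits. Counts behind these values were 4 to 8 reads in endocardial and 27 to 43 reads in endothelial libraries. Sox3 thus passed the filter on low counts only through the endothelial libraries, where it is high.

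Sox2, which acts in pluripotent cells as well as in neural progenitors, was the most abundant SoxB gene. Its levels were 7.62, 11.5, 27.2 and 5.99 CPM in endocardial libraries A, C, E and G, and 32.0, 62.4, 111 and 36.0 CPM in endothelial libraries B, D, F and H. The groups did not overlap, with E the nearest endocardial library to B, the lowest endothelial one. The mean was 13.1 ± 9.70 CPM in endocardial and 60.4 ± 36.4 CPM in endothelial libraries. With this spread the log2 fold change of -2.19 (SE 0.54, 95% interval -3.42 to -0.97) was not called (adjusted p = 0.0752). It was called without E, at -2.85 (adjusted p = 0.0422), by DESeq2 (adjusted p = 0.0108), by limma with voom weights (adjusted p = 0.00491) and by edgeR with a block for each pair of adjacent letters (A with B and so on, adjusted p = 0.000122), a pairing that no label states. Sox2 made up 71.4% to 84.1% of the summed SoxB CPM in endocardial and 63.9% to 80.3% in endothelial libraries.

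Sox21, the SoxB2 member, had 0.904, 1.47, 2.37 and 0.998 CPM in endocardial libraries A, C, E and G, against 4.90, 7.89, 8.87 and 2.27 CPM in endothelial libraries B, D, F and H. E and H overlapped, and the other libraries were apart. Sox21 averaged 1.43 ± 0.668 CPM in endocardial libraries and 5.98 ± 2.99 CPM in endothelial ones. The log2 fold change of -2.04 (SE 0.47, 95% interval -3.09 to -0.98) was not called (adjusted p = 0.0551), but it was without H (-2.31, adjusted p = 0.0228), by DESeq2 (adjusted p = 0.00261), by limma with voom weights (adjusted p = 0.0218), without the filter on low counts (adjusted p = 0.0389) and with that block (adjusted p = 0.00484). Library H was the lowest endothelial library for Sox1 and Sox21, whereas B was the lowest for Sox2 and Sox3. Sox14, the other SoxB2 gene of the mouse, had at most 1 count in any library and was not tested.

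Of the 4 SoxB genes, 3 showed no overlap between groups, beside 5.33% of tested genes that lay entirely lower in the endocardial libraries, 4.42% that lay entirely higher and 9.76% that did either. DESeq2 called all 4 lower, where it called 3.84% of tested genes lower, and limma with voom weights also called 4, against 4.09%. In edgeR fits that leave out 1 library, the number called was 1 without A, C, D, F or G, 2 without B or E, and 3 without H.

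**Figure D2:**
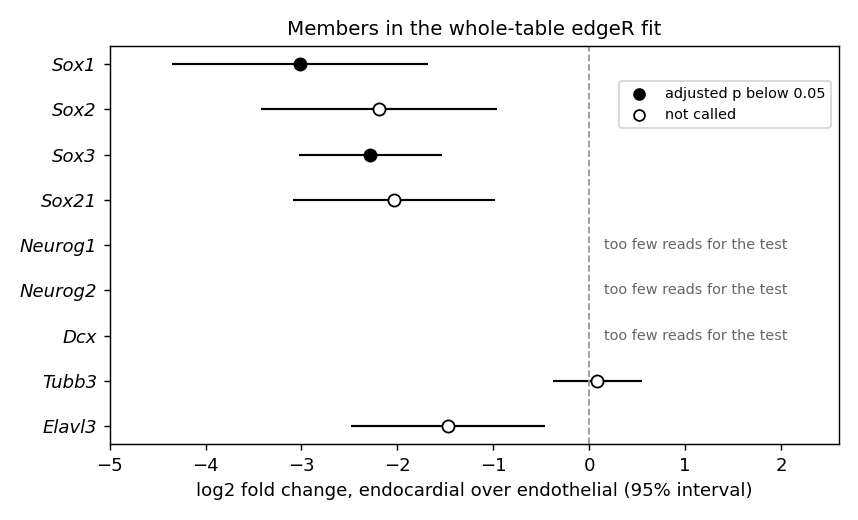
Log2 fold change (endocardial over endothelial) of the 6 tested genes in the whole-table edgeR fit, with 95% intervals. Filled points passed an adjusted p below 0.05 and open points did not. The SoxB estimates lie between -3.01 and -2.04, Tubb3 lies at 0.09, and Neurog1, Neurog2 and Dcx had too few reads.

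The proneural genes were close to the limit of detection in both groups. Neurog1 had 0 counts in all 4 endocardial libraries, and 1, 1, 1 and 0 counts in endothelial libraries B, D, F and H. A count of 0 allows a level of up to between 0.314 and 0.387 CPM in an endocardial library (3 counts, for counting error alone), so no difference was detectable at this depth and no fold is given. Neurog2, which specifies neurons in cortex and spinal cord, had 0, 4, 4 and 0 counts in endocardial libraries A, C, E and G, against 1, 7, 18 and 3 counts in endothelial libraries B, D, F and H. Pooled over each group this was 0.231 CPM in endocardial libraries, with an exact 95% Poisson interval of 0.0998 to 0.455, and 0.805 CPM in endothelial libraries, with an interval of 0.539 to 1.16. These intervals cover counting error only, the groups overlapped, and 18 of the 29 endothelial reads came from library F. A fit without the filter on low counts gave Neurog2 an estimate of -1.80 on the log2 scale with an SE of 0.98 (edgeR adjusted p = 0.553).

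The neuronal genes differed among themselves. Tubb3, the beta tubulin enriched in neurons, had 10.97, 9.11, 7.10 and 7.86 CPM in endocardial libraries A, C, E and G, against 8.92, 8.62, 8.97 and 6.46 CPM in endothelial libraries B, D, F and H. The groups overlapped, with the highest value in A and the lowest in H. Its means of 8.76 ± 1.69 CPM in endocardial and 8.24 ± 1.199 CPM in endothelial libraries differed by less than the spread (log2 fold change 0.09, 95% interval -0.38 to 0.55, adjusted p = 0.908). The sign of this value turned without A or without H, at -0.057 and -0.018. Gm20388, the longer locus around Tubb3, had 68.5 ± 19.4 CPM in endocardial and 80.5 ± 21.9 CPM in endothelial libraries and was not called either (log2 fold change -0.23, adjusted p = 0.738).

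Elavl3, a neuronal RNA-binding protein gene, had 0.904, 0.733, 1.08 and 1.497 CPM in endocardial libraries A, C, E and G, against 1.25, 2.63, 5.11 and 2.75 CPM in endothelial libraries B, D, F and H. B and G overlapped, and F was the highest. Elavl3 averaged 1.05 ± 0.328 CPM in endocardial libraries and 2.93 ± 1.603 CPM in endothelial ones. The log2 fold change of -1.47 (SE 0.45, 95% interval -2.48 to -0.46) was not called (adjusted p = 0.135, and 0.0532 to 0.328 over the 8 fits that leave out 1 library), and of 17 alternative fits only limma with voom weights called it (adjusted p = 0.0392). Dcx, a microtubule protein gene of young migrating neurons, had 5, 8, 6 and 5 counts in endocardial libraries A, C, E and G and 9, 9, 24 and 6 counts in endothelial libraries B, D, F and H. Apart from F, its libraries lay between 0.624 and 1.31 CPM in both groups together, and it was too low for the filter. Without that filter Dcx was estimated at -0.93 on the log2 scale with an SE of 0.50 (edgeR adjusted p = 0.548). Of the 5 proneural and neuronal genes, 2 were tested and 0 called, with 1 (Elavl3) lower at an unadjusted p below 0.05, where 8.99% of all tested genes were. DESeq2 also called 0.

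The sets were also put side by side without a test. The summed level of the SoxB genes was 9.94, 16.1, 32.4 and 7.98 CPM in endocardial libraries A, C, E and G, against 50.1, 89.8, 141 and 44.8 CPM in endothelial libraries B, D, F and H. The summed level of Dcx, Tubb3 and Elavl3 was 12.5, 10.7, 8.82 and 9.98 CPM in the same endocardial libraries, against 10.97, 12.6, 16.6 and 9.93 CPM in the endothelial ones. The SoxB sums did not overlap and the neuronal sums, which are mostly Tubb3, did. Within a library, the mean log2 CPM (with a prior count of 2) of the SoxB genes minus that of the proneural and neuronal genes was 0.89, 1.34, 1.78 and 0.63 in endocardial libraries A, C, E and G, against 2.96, 2.92, 2.75 and 2.27 in endothelial libraries B, D, F and H. No test was made of this difference, because the genes were chosen with earlier results known. The values of Neurog1 and Neurog2 in it are largely set by the prior count.

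Gene by gene, the distance between the sets depended on the partner. As log2 differences within a library, which share their members and are not independent, it was read against the tested genes Tubb3 and Elavl3. Against Tubb3 the 4 SoxB genes differed between groups by -2.92 to -1.90 on the log2 scale, and 3 of the 4 pairings showed no overlap. As Tubb3 hardly differed between groups, these pairings largely restate the SoxB differences. The share without overlap among all genes paired with Tubb3 was not computed. Over all 20 pairings of SoxB with proneural and neuronal genes, 9 showed no overlap. Of these, 2 each were with Neurog1, Neurog2 and Dcx, which were too low to test, and 3 with Tubb3. The share without overlap among all genes was not computed for these partners either. Against Elavl3, itself lower on average in endocardial libraries, the difference was -1.65 to -0.63, and 0 of the 4 pairings were free of overlap. Sox2 against Tubb3 overlapped, since endocardial library E, at 1.91, exceeded endothelial library B, at 1.82.

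**Figure D3:**
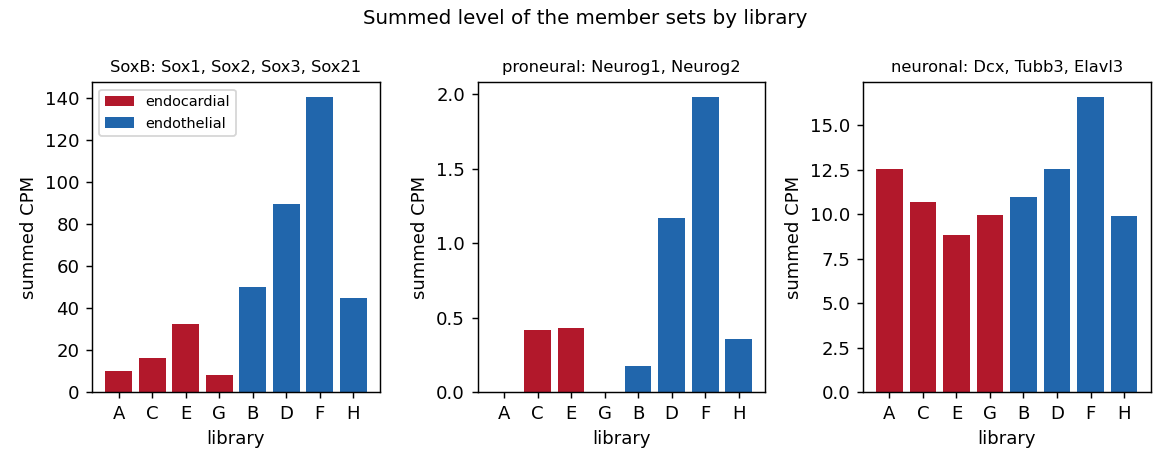
Summed CPM of the SoxB, proneural and neuronal genes in each library, endocardial libraries A, C, E and G before endothelial libraries B, D, F and H, with bars starting at 0. SoxB sums run from 7.98 to 32.4 CPM in endocardial and from 44.8 to 141 CPM in endothelial libraries, while the neuronal sums of both groups lie between 8.82 and 16.6 CPM.

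Levels can be compared between genes only per length, here as CPM per kilobase of merged exons. On that scale Sox2 was highest in endocardial libraries, at 6.36 ± 4.71, followed by Tubb3 at 4.69 ± 0.906, and the ranges of these neighbours overlapped. Sox21 (0.377 ± 0.176), Sox3 (0.344 ± 0.0809) and Sox1 (0.285 ± 0.185) came next, clear of Tubb3, followed by Elavl3 at 0.153, Neurog2 at 0.0953, Dcx at 0.0544 and Neurog1 at 0. From Sox21 down to Dcx, the ranges of neighbours in this order overlapped. In endothelial libraries Sox2 stood at 29.3 ± 17.7, with its lowest library at 15.6, clear of Tubb3 at 4.41 ± 0.642, which was itself clear of Sox1 at 2.37 ± 1.24. Sox3 (1.72 ± 0.431), Sox21 (1.57 ± 0.788), Elavl3 (0.426 ± 0.233), Neurog2 (0.376 ± 0.358), Dcx (0.106) and Neurog1 (0.0503) followed. From Sox1 down, neighbours overlapped.

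Elavl3 is the neuronal member whose promoter window held E-boxes, the CANNTG sites that bHLH factors such as Neurog2 can bind, so it is shown here. The line gives the 250 bases before the gene's start from RefSeq (GRCm38.p6, chr9:22052024-22052273, minus strand), with E-boxes in capitals.
Elavl3: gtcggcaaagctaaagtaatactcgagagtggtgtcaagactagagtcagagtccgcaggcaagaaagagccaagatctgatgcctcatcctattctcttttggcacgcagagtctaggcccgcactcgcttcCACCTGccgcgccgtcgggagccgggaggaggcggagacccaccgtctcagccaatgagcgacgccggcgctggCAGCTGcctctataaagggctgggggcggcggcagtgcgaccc

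The window of 300 bases around the start held 2 E-boxes in Elavl3, of which 1 was CAGCTG, and 0 in Tubb3 and in both windows of Dcx. Among 32851 promoter windows of the same length, 72.3% held CANNTG and 16.3% held CAGCTG, read on both strands, CAGCTG being a form of CANNTG. The form CAGATG was in 0 of these neuronal windows and in 17.2% of all. Of the Sox-type motifs, ACAAAG was present once in the Sox2 window and once in a Dcx window (18.7% of all windows), and ACAATG once in that of Neurog1 and at 2 places in that of Tubb3 (12.6%). Such matches describe the letters in a window, not binding.

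Related genes were read from lists, whose counts are given beside the background of 1.16% lower and 1.42% higher. Of 16 tested neural progenitor genes, 5 were lower in endocardial libraries and 0 higher, with a median log2 fold change of -1.24. Pax6, a regulator of the eye and forebrain, averaged 2.93 ± 0.565 CPM in endocardial and 10.7 ± 2.10 CPM in endothelial libraries (adjusted p = 0.00396), and the forebrain factors Lhx2, Six3 and Otx1 and the stem cell surface gene Prom1 were the others called. Nes, the intermediate filament of progenitors, was at 149 ± 32.8 CPM in endocardial and 155 ± 13.7 CPM in endothelial libraries (adjusted p = 0.914). The Sox2 partner Pou3f1 was lower, at -1.76 (adjusted p = 0.0436), as was Fgf4, a Sox2 target in pluripotent cells, at -3.67 (adjusted p = 0.0441). These were 2 of 10 genes in the list of POU and pluripotency partners, of which 0 were higher and all 10 were below 0 (median -2.49), with Pou3f2 at -2.39 (adjusted p = 0.0658).

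Genes downstream of the proneural step were mixed. The 15 other neural bHLH genes, among them Neurod1 and Olig2, were all too low to test, and 11 of them stayed under 10 counts in every library. Of 11 tested genes of proneural targets and lateral inhibition, Dll1, the Notch ligand induced by proneural factors, was lower (-1.78, adjusted p = 0.0258) and Cbfa2t3, a corepressor also active in blood progenitors, was higher (1.65, adjusted p = 0.00992), with a list median of -0.08. Srrm4, a neuronal splicing factor gene, was at -1.85 (adjusted p = 0.0854) and the Notch pathway gene Dll3 at -1.10 (adjusted p = 0.14). Of 19 tested pan-neuronal genes, 1 was lower, the neurofilament-related gene Ina (-3.17, adjusted p = 0.0222), and 0 were higher. Ina had 1 to 5 counts in endocardial libraries and passed the filter on low counts only through the endothelial ones. At an unadjusted p below 0.05, 10 of the 19 were lower and 1 higher, beside 8.99% of all tested genes lower. Of the 19, 17 lay below 0 (median -0.66), as did 47.5% of all tested genes. Stmn2, a neuronal growth gene, was at -0.76 (adjusted p = 0.0569), the synaptic vesicle gene Syp at -1.34 (adjusted p = 0.0636) and Elavl2, a relative of Elavl3, at -1.56 (adjusted p = 0.107). Of 5 tested neural crest and placode genes, Tfap2a was lower (-2.06, adjusted p = 0.012) and 0 were higher (median -0.38), and of 4 tested glial genes 0 were called (median -0.32), with 1 at an unadjusted p below 0.05.

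Among 11 tested Sox genes outside the SoxB group, 3 were higher and 0 lower, and all 3 were SoxF genes of endothelium. The same 3 genes are also in the pan-endothelial list above, so they are not a separate observation. Sox7 was at 2.91, Sox18 at 2.34 and Sox17 at 1.84 on the log2 scale, the opposite direction to Sox1 and Sox3. The SoxC genes Sox4 and Sox11, which act in young neurons but also in many embryonic tissues, were at -0.05 (adjusted p = 0.893) and -0.36 (adjusted p = 0.231), and the list median was -0.31.

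**Figure D4:**
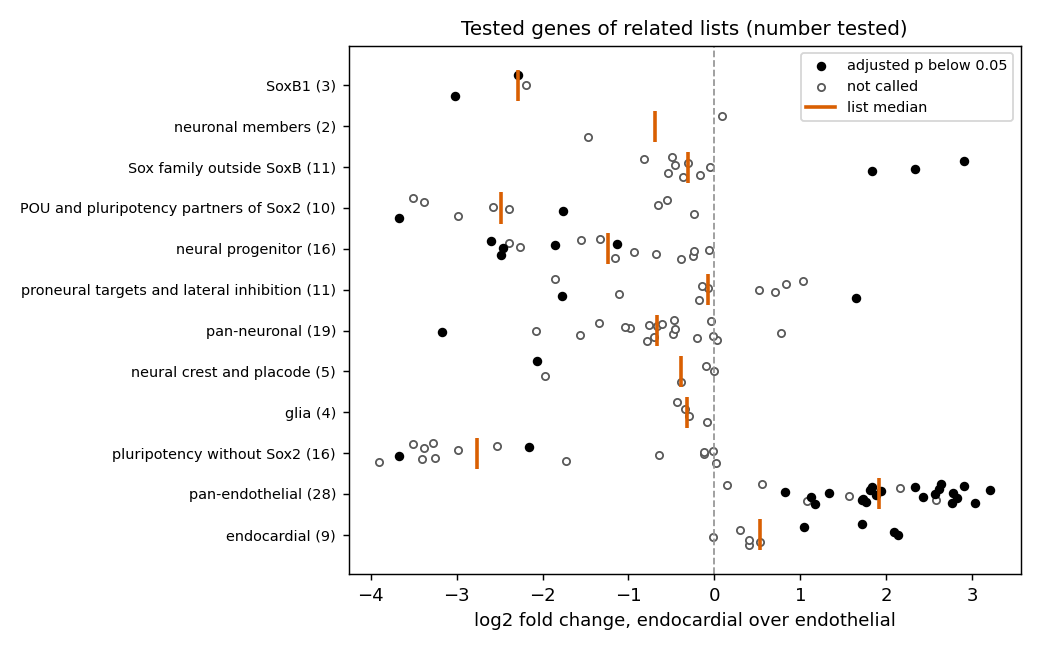
Log2 fold change (endocardial over endothelial) of each tested gene in the lists, with the number tested in brackets. Filled points passed an adjusted p below 0.05, open points did not, and the vertical bar is the list median. All neural progenitor genes lie left of 0, as do 15 of the 16 pluripotency genes, though Lin28a, Klf2 and Klf4 lie close to it. All pan-endothelial genes lie right of 0, while the genes of the proneural target list fall on both sides.

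Many markers of pluripotent cells were, like the SoxB genes, at lower levels in the endocardial libraries, though few passed the test and others did not differ. Of 16 pluripotency genes other than Sox2, 2 (Tdgf1 and Fgf4) were lower in endocardial libraries and 0 higher, with a median of -2.76. Fgf4 and Pou5f1, among others, are also in the list of POU and pluripotency partners above. Lin28a (-0.01), Klf4 (-0.12), Klf2 (-0.12) and Dnmt3b (0.02) had log2 fold changes close to 0. Pou5f1, the partner of Sox2 in pluripotent cells, was at 1.81, 1.47, 11.5 and 1.497 CPM in endocardial libraries A, C, E and G, against 25.3, 24.5, 95.5 and 27.4 CPM in endothelial libraries B, D, F and H (log2 fold change -3.38, adjusted p = 0.0569). As for Sox2, E was the highest endocardial and F the highest endothelial library. The summed level of the list was 410.3 to 605.2 CPM in endocardial and 494.5 to 1378 CPM in endothelial libraries, and these ranges overlapped. In endocardial libraries the sum was mostly Lin28a, which averaged 350 ± 56.6 CPM there and 353 ± 86.2 CPM in endothelial libraries (edgeR adjusted p = 0.988). In library F, which had the highest sum, Dppa5a alone was at 486 CPM. Dppa3 had 0 counts in A, C and G. The neural progenitor list summed to 492.4 to 660.9 CPM in endocardial and 712.6 to 985.1 CPM in endothelial libraries, with Gbx2 at 0 in E. Most of that sum came from Cdh2, Nes, Ncam1 and Msi1, of which none was called (edgeR adjusted p of 0.151 to 0.914). In these bulk samples, fewer cells of a type and less RNA per cell cannot be told apart, and the part of pluripotent or neural cells in the SoxB result was not tested.

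The genes whose pattern over the 8 libraries was most like that of the SoxB1 genes were found by Pearson's r of log2 CPM with the mean of the standardised SoxB1 values, a description in which the difference between groups takes part. They were Nat8l, Slitrk5, Cacnb2, Fezf2, Crabp2 and Pnpla3, with r of 0.98 to 0.99. Those most like the mean of Tubb3 and Elavl3 were Ppp1r9a, Ccdc36, Abca2, Pole, Ddhd2 and Usp37, also with r of 0.98 to 0.99. Of the 6 genes most like SoxB1, Slitrk5, Fezf2, Crabp2 and Pnpla3 were called lower, beside 1.16% of all tested genes. Slitrk5, a neuronal membrane protein gene, was at -2.91 (edgeR adjusted p = 0.0162). None of the 6 genes most like the neuronal mean was called (edgeR adjusted p of 0.403 to 0.726). Both outcomes largely follow from how the genes were picked, so they are no separate evidence. By single member, Eya2 was most like Sox2, Pcdh8 most like Sox1, Cntfr most like Sox3, Otx1 most like Sox21, Neurl4 most like Tubb3 and B4galt6 most like Elavl3, each with r of 0.98 or 0.99.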

How the data were processed

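The submitters' processing notes name Salmon, a transcript quantifier, DESeq2 and genome build mm10, with no role or version. The values are the authors' deposited estimated counts per gene symbol, whole numbers that sum to a different total in each library. The sources used here do not give the transcript set, the summing to genes or the strand setting. RNA was extracted with an RNeasy kit and libraries made with a stranded mRNA kit, per the labels' protocols.

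Genes with low counts were removed by filterByExpr (at least 10 counts, 15 in total). After TMM scaling, all 8 libraries entered the robust quasi-likelihood test of edgeR 4.0.16 in R 4.3.3, with no block. An SE is the size of the log2 estimate over the root of its F statistic. Alternatives used DESeq2 1.42.0 and limma 3.58.1, other scalings and filters, a block of neighbouring letters, and leaving out each library. Coordinates and merged exon lengths are from GENCODE M21. RefSeq promoter windows were matched by symbol for 8 of the 9 genes. The fits were tested on simulated data.

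The 9 genes and the lists were chosen with earlier results of these data known. Text names all 9, up to 4 genes per list by smallest p, and the genes most like them in pattern. Otx1, Nes, Cdh2, Ncam1, Msi1, Sox4, Sox11 and Gbx2 lie outside that rule and were named after their values were seen. The same holds for Lin28a, Dnmt3b, Klf2, Klf4, Dppa3, Dppa5a, Neurod1 and Olig2. The planned comparison of proteins was replaced by coding DNA.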

Additional observations from a re-analysis of the deposited data

Results flagged for a closer look

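Of 24 combinations of a gene or set with a group of 4 libraries, Neurog1 in endocardial libraries was 0 throughout and could not be checked. Among the others, 2 stood out because 1 library lay far from the rest relative to the group's range, and chance gives about 1 in 20. Dcx in endocardial libraries had library C at 0.837 CPM, with the other libraries at 0.624 to 0.646 CPM (gap over range 0.898), a matter of 8 against 5 or 6 counts. Tubb3 in endothelial libraries had library H at 6.46 CPM, with the other libraries at 8.62 to 8.97 CPM (gap over range 0.859).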

How the results depend on the processing

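Sox3 was called lower under all 17 alternatives, Sox1 under 11, Sox21 under 5, Sox2 under 4, Elavl3 under 1 and Tubb3 under 0. The number of SoxB genes called lower was 2, and it was 4 with DESeq2, 4 with limma, 4 with neighbouring letters as a block (a pairing that no label states), 3 with no filter on low counts and 1 to 3 when a library was left out. For the proneural and neuronal genes it was 0, with 1 by limma and 0 in every fit that left out a library. No SoxB, proneural or neuronal gene was called higher in any of them. Over the whole table, 196 genes were higher and 160 lower. These became 330 and 530 with DESeq2, 410 and 565 with limma, and 505 and 699 with that block, and they ran from 99 to 230 and from 35 to 227 when a library was left out. The log2 fold change of Tubb3 ran from -0.057 to 0.17 when a library was left out, and its sign turned without A and without H (-0.018). The SoxB minus proneural and neuronal difference between groups was -1.57, and -1.77 to -1.39 when a library was left out. It was -1.37 with a prior count of 0.5 in place of 2, and -1.54 with a prior count of 5. The causes were not tested. Depth limits Neurog1, Neurog2 and Dcx, which could not be tested in the fit with the filter.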
